A study of Mus musculus with 11 samples.

Results

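Low-level protein-coding genes were defined as genes typed protein_coding in a table of exon reads whose mean over the 3 control libraries lay from 10 to 50 depth-normalized reads. There were 979 such genes among 12009 protein-coding genes (8.15%) and 13088 genes of all types. The cells were wild-type F121-9 mouse embryonic stem cells, an established female CAST/129 hybrid line, kept in serum-free medium with LIF and inhibitors of MEK and GSK3. The control group (siNT, replicates 1, 2 and 3) was transfected with a non-targeting siRNA at 30 nM, and the other group (siZC3H4, replicates 2 and 3) with an siRNA against Zc3h4 at the same dose. Nascent RNA was labelled with 500 µM 4-thiouridine for 20 minutes, and cells were harvested 47 hours after transfection. The design text calls the replicates biological. The labels do not say that they came from separate cultures, so p-values measure the spread between these libraries, part of which may be technical.

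TT-seq (transient transcriptome sequencing) captures RNA made during a short pulse of 4-thiouridine, so its reads follow transcription more closely than the amount of stable RNA. ZC3H4 acts with WDR82 in the Restrictor complex, which ends early, unproductive transcription, best known for the antisense transcripts that leave promoters upstream of a gene. Many genes with little transcription in embryonic stem cells are used in differentiated tissues such as testis, brain, gut or ciliated epithelium, and some share a divergent promoter region with a strongly transcribed neighbour on the opposite strand.

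Exon reads totalled between 14840637 and 26548710 per library, and every value was a whole number of reads divided by 1 depth factor per library. A list of stem cell identity held 19 genes, 18 of them in the table, and 10 of these served as markers. All 10 were read, from a siNT mean of 1060.0 depth-normalized reads for Dppa4 to 28439 for Tfcp2l1, and none passed the test. Of lists for other cell types, 6 of 19 feeder or fibroblast genes, 7 of 26 trophoblast genes and 2 of 17 two-cell-like genes were in the table, and none was called. For genes of early embryonic germ layers 29 of 75 were in the table, of which 1 was called higher by limma. Their summed level was 11874 to 12320 depth-normalized reads in siNT and 13857 and 14616 in the libraries labelled siZC3H4. The part of these genes in the results was not tested. The siRNA target Zc3h4 had 3465, 3610 and 3363 exon reads in siNT and 7285 and 6718 in the libraries labelled siZC3H4. Zc3h4 was thus higher where the label gives the siRNA against it (log2 change 1.01, SE 0.11, limma adjusted p = 0.00431), and nascent reads do not measure the mRNA that an siRNA cleaves. All directions below are therefore those of the libraries labelled siZC3H4.

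Promoter sequences of 5 of the genes that rose are shown because they represent the arrangements found among them, with a shared promoter region or with no neighbouring start in the window. They come from RefSeq (GRCm38.p6, the mm10 assembly), run from 250 bases before to 50 bases after the RefSeq start, and are written 5′ to 3′ on the gene's strand. The RefSeq start nearest the table's start was taken, and for these genes it was 0 to 106 bp away. Fam229b (chr10:39133851-39134150, minus strand) and Iqch (chr9:63602444-63602743, minus strand) each had a start of the opposite strand inside the window. Capitals in these mark the 123 bases between the starts of Fam229b and Tube1 and the 153 bases between those of Iqch and Aagab, which are 214 bp apart by the table's own coordinates.
Fam229b: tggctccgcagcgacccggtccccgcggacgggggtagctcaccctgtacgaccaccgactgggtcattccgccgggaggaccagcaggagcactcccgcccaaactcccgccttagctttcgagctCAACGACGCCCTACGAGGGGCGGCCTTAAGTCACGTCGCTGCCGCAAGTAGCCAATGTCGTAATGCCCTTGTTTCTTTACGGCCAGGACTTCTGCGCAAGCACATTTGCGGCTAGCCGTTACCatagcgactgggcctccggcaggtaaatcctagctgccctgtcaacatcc
Iqch: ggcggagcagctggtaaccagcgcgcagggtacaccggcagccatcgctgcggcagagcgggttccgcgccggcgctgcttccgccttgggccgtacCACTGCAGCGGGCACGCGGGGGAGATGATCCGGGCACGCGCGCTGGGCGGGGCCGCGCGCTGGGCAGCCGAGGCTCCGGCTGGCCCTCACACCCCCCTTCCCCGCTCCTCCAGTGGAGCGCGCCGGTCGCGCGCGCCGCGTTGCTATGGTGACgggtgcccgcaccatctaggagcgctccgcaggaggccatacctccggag
No RefSeq start of the opposite strand lay in the 250 bases before the start of 1700037C18Rik (chr16:3908640-3908939, minus strand), Tcam1 (chr11:106276422-106276721, plus strand) and Nkx2-9 (chr12:56613235-56613534, minus strand). Capitals in these mark matches, on either strand, to 3 short motifs of promoters that were searched, TATAAA (the TATA box), GGGCGG (the GC box) and CCAAT (the CCAAT box). Each motif was searched on its own, and matches that overlapped another match were kept.
1700037C18Rik: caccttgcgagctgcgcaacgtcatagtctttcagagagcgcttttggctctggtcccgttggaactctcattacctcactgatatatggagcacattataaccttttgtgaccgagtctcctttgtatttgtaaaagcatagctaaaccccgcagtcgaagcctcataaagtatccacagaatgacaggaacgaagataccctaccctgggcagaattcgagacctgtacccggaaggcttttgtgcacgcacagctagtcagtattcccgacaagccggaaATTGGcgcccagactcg
Tcam1: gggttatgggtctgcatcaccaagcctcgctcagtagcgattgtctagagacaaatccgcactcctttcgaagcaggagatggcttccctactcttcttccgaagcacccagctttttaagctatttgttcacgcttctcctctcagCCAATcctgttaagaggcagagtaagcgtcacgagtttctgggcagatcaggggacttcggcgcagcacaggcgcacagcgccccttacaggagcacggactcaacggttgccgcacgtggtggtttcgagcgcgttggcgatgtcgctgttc
Nkx2-9: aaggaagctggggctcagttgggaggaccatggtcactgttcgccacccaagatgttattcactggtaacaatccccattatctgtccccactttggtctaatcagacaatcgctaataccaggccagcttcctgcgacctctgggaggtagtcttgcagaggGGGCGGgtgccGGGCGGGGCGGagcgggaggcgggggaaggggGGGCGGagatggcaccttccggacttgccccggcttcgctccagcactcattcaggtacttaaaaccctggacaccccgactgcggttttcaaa
Of the 979 genes, 746 matched a RefSeq promoter by symbol, chromosome and strand. TATAAA was present in 9.79% of these, in 6.52% of 9539 protein-coding genes of the table and in 13.6% of all 32851 promoters of the RefSeq table. GGGCGG was in 63.0% of the low-level genes, 69.2% of the protein-coding genes and 35.7% of all promoters, and CCAAT was in 36.1%, 39.9% and 37.4%. The median number of CG dinucleotides in the 300 bases was 19 for the low-level genes, 22 for the protein-coding genes and 7 for all promoters. Among the 28 genes that rose and had a promoter, TATAAA was found in 1, GGGCGG in 15 and CCAAT in 8. A match describes the letters in this window and not a bound factor.

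Transcription of these genes was faint per length of transcript. The median was 11.0 depth-normalized reads per kb of transcript in siNT, against 198 over all protein-coding genes. No gene was at 0 in any library, and the lowest value was 2.61. Together the 979 genes took 0.189%, 0.153% and 0.189% of exon reads in siNT replicates 1, 2 and 3 and 0.225% and 0.232% in the libraries labelled siZC3H4. This corresponded to 28039, 26844 and 34906 reads against 59733 and 37585. The median gene had 27, 21.7 and 29.01 depth-normalized reads in siNT and 28.9 and 32.5 in the libraries labelled siZC3H4, so the median of replicate 2 of siZC3H4 lay below that of siNT replicate 3. Since the siNT levels chose the genes, these sums describe them and test nothing.

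At the lower limit of 10, Reln, which encodes the secreted neuronal protein reelin (siNT mean 10.03 ± 1.78, SD, n = 3), and Gm9844 (10.1 ± 2.698) were just inside. Tnfsf9 (9.90 ± 1.98) and Topaz1 (9.78 ± 3.48) were just outside. At the upper limit of 50, Olfml1 (50.0 ± 1.33) and Ttc34 (50.0 ± 21.03) were inside, and Tspan2 (50.0 ± 22.2) and Slc13a4 (50.0 ± 24.6) outside. The SD of each of these 8 genes was larger than its distance from the limit.

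The low-level genes that passed the test were all higher in the libraries labelled siZC3H4. Of 968 genes with a mean of 10 or more over the 5 libraries, 31 rose (3.20%) at a limma adjusted p under 0.05, against 2.22% of all 12482 genes tested. No low-level gene fell by limma (background 0.144%), edgeR (background 0.152%) or DESeq2 (background 1.17%), and at an unadjusted p under 0.05 14 were lower (1.45%) and 166 higher (17.1%), against 4.39% and 11.0% of all genes tested. The median log2 change was 0.27 (interquartile range -0.12 to 0.62), against 0.01 over all genes tested, with a median SE of 0.36 for a single gene. A 2-fold or larger difference was seen in 116 genes upward and 6 downward, against backgrounds of 3.41% and 0.336%. Both libraries labelled siZC3H4 lay above all siNT libraries in 291 of 979 genes (29.7%, background 19.6%) and below them in 72 (7.35%, background 12.5%). The siNT values that define the genes are one side of this difference, so none of these counts is read as a result about low-level genes.

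The remaining 11 genes had a mean under 10 over the 5 libraries and were not tested. They were Dlx3, Galnt14, Vav3, Rbm24, 1700069L16Rik, Hecw2, Diras2, Kctd16, Zfp575, Tnfaip8l3 and A530084C06Rik, and each had a lower mean in the libraries labelled siZC3H4, from 3.89 for Kctd16 to 9.59 for 1700069L16Rik. A low-level gene could miss the filter only by being low there.

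At siNT means above 50 the median shifts were smaller, but the share that rose was not smaller from 50 to 100. The median log2 change was 0.11 over 814 protein-coding genes with siNT means from 50 to 100, of which 29 rose (3.56%, against 3.20% of the low-level genes). It was 0.03 over 3415 genes from 100 to 500, of which 88 rose (2.58%). It was -0.01 over 4421 genes from 500 to 2000, with 32 risen (0.724%), and -0.03 over 1935 genes above 2000, with 6 risen (0.310%). Below 10 it was larger, at 1.08 with 2 risen, but only 42 of 445 genes passed the filter there, which they could do only through a higher level in the libraries labelled siZC3H4. Among the low-level genes themselves, 8 of 310 tested genes from 10 to 20 rose, 10 of 242 from 20 to 30, 7 of 218 from 30 to 40 and 6 of 198 from 40 to 50. The 306 long noncoding RNA genes of the same range had a median of 0.52, with 28 risen (9.15%). As the scatter of change against level shows, genes that rose were spread over the whole range.

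**Figure D1:**
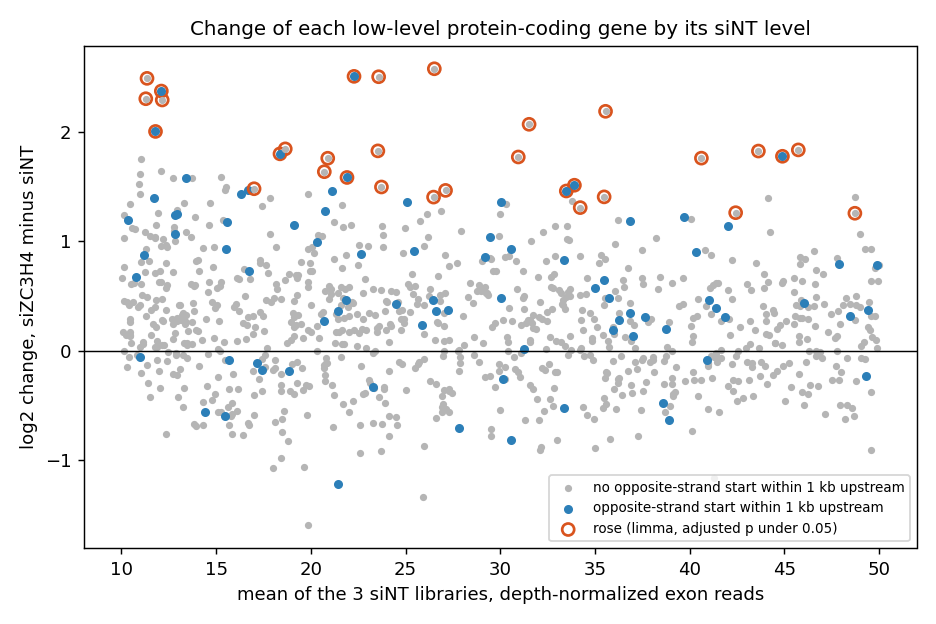
Each point is one of the 968 tested low-level genes, with its siNT mean in depth-normalized exon reads on the horizontal axis and its log2 change on the vertical axis. The 31 circled genes rose, at siNT means between 11.3 and 48.7, and blue points have an opposite-strand gene start within 1 kb upstream.

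Tcam1, a testis cell adhesion molecule, had the largest rise (chr11:106276580-106288143, mm10, plus strand). Its reads were 22, 20.9 and 36.7 in siNT and 145 and 171 in the libraries labelled siZC3H4, a fold of 5.95 (log2 2.57, SE 0.31, limma adjusted p = 0.0057). The groups did not overlap in this or any other of the 31 genes that rose. Over all genes, both libraries labelled siZC3H4 lay above all siNT libraries in 19.6%. The 31 were chosen by a test of this difference, so their separation adds no support. Stkld1, which encodes a kinase-like protein (chr2:26933824-26953496, plus strand), had 22, 25.2 and 19.6 reads against 162 and 105 (log2 2.50, SE 0.30, limma adjusted p = 0.00534). Nkx2-9, a homeobox factor of the ventral neural tube (chr12:56611393-56613178, minus strand), had 32, 18.3 and 20.5 against 153 and 118 (log2 2.50, SE 0.32, limma adjusted p = 0.00678). In these 2 genes siZC3H4 replicate 2 was the highest library, and in Tcam1 it was replicate 3.

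Wnt8a, a secreted Wnt ligand of the primitive streak, had 9, 16.5 and 8.53 reads in siNT and 78.7 and 54.5 in the libraries labelled siZC3H4 (log2 2.49, SE 0.39, limma adjusted p = 0.0146). It was at the low end of the range in siNT and more than 3 times its highest siNT value in each of the others. The uncharacterised gene 1700018B08Rik followed a like course, with 8, 13.9 and 11.9 against 65.6 and 51.6 (log2 2.30). Tmem229a, a transmembrane protein gene, had 15, 6.96 and 14.5 against 67.9 and 53.5 (log2 2.29).

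Several of the genes that rose are known from testis and sperm. Iqch, expressed in male germ cells, had 7, 16.5 and 12.8 reads in siNT and 62.8 and 64.1 in the libraries labelled siZC3H4 (log2 2.37, SE 0.40, limma adjusted p = 0.0182). Ccdc62, needed for sperm formation, had 49, 44.3 and 37.5 against 166 and 146 (log2 1.82). Izumo2, a relative of the sperm protein that binds the egg, had 35, 36.5 and 50.3 against 132 and 144 (log2 1.76). Shcbp1l, a spindle protein of spermatocytes, had a log2 change of 1.46, and Ggnbp1, a partner of the germ cell protein gametogenetin, had the smallest of the 31, at 1.26. These were picked by what is known of them after their rise was seen, except where a list held them.

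Other genes that rose are used in ciliated cells, the gut, the brain or sensory tissue. Of those below, Ccdc78, Ccno and Vmn1r4 were on no tissue list and were placed here after their rise was seen. On the list for motile cilia no low-level gene rose by limma. Ccdc78 and Ccno, which act in centriole amplification in multiciliated cells, had 19, 13.9 and 23.0 against 88.3 and 52.6 reads (log2 1.84) and 29, 38.3 and 25.6 against 127 and 88.9 (log2 1.77). Slc2a5, the fructose transporter GLUT5 of the intestine, had 44, 56.5 and 36.7 in siNT and 168 and 159 in the libraries labelled siZC3H4 (log2 1.83, SE 0.26, limma adjusted p = 0.01001). Its 2 higher libraries differed by far less than the groups did. Tmem130, a transmembrane protein gene expressed in brain, had 19, 22.6 and 29.01 against 96.2 and 74.6 (log2 1.82), and Vmn1r4, a vomeronasal pheromone receptor gene, had 19, 14.8 and 21.3 against 86.6 and 49.7 (log2 1.80).

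For the remaining genes chosen by the size of the rise, Isoc2b had 44, 20.9 and 41.8 reads against 167 and 148 (log2 2.19), and Thnsl2, a threonine synthase-like gene, had 25, 24.3 and 45.2 against 123 and 137 (log2 2.07). Xrra1 had 13, 11.3 and 11.1 against 47.0 and 53.5 (log2 2.00), and 1700037C18Rik had 52, 41.7 and 41.0 against 195 and 123 (log2 1.78). Gm16253 (log2 1.76) and the serine protease gene Prss48 (log2 1.63) completed these 20. The other 11, of which 4933430I17Rik, Shcbp1l and Fermt1 also fall under other parts of the naming rule and the rest were named after their values were seen, were Fam229b (1.58), 4933430I17Rik (1.51), the serine protease gene Prss38 (1.49), Cpm, which encodes carboxypeptidase M (1.48), Shcbp1l (1.46), the focal adhesion gene Lpxn (1.46), Serinc4 (1.40), the keratinocyte gene Fermt1, which encodes kindlin-1 (1.40), the retinal gene Cerkl (1.31), the potassium channel gene Kcnj6 (1.26) and Ggnbp1 (1.26), each value being a log2 change. Over all 31, folds ran from 2.39 to 5.95, and the mean in the libraries labelled siZC3H4 ran from 48.9 to 163 depth-normalized reads. The rises therefore ended at levels that were still low beside the median of 554 for protein-coding genes in siNT.

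**Figure D2:**
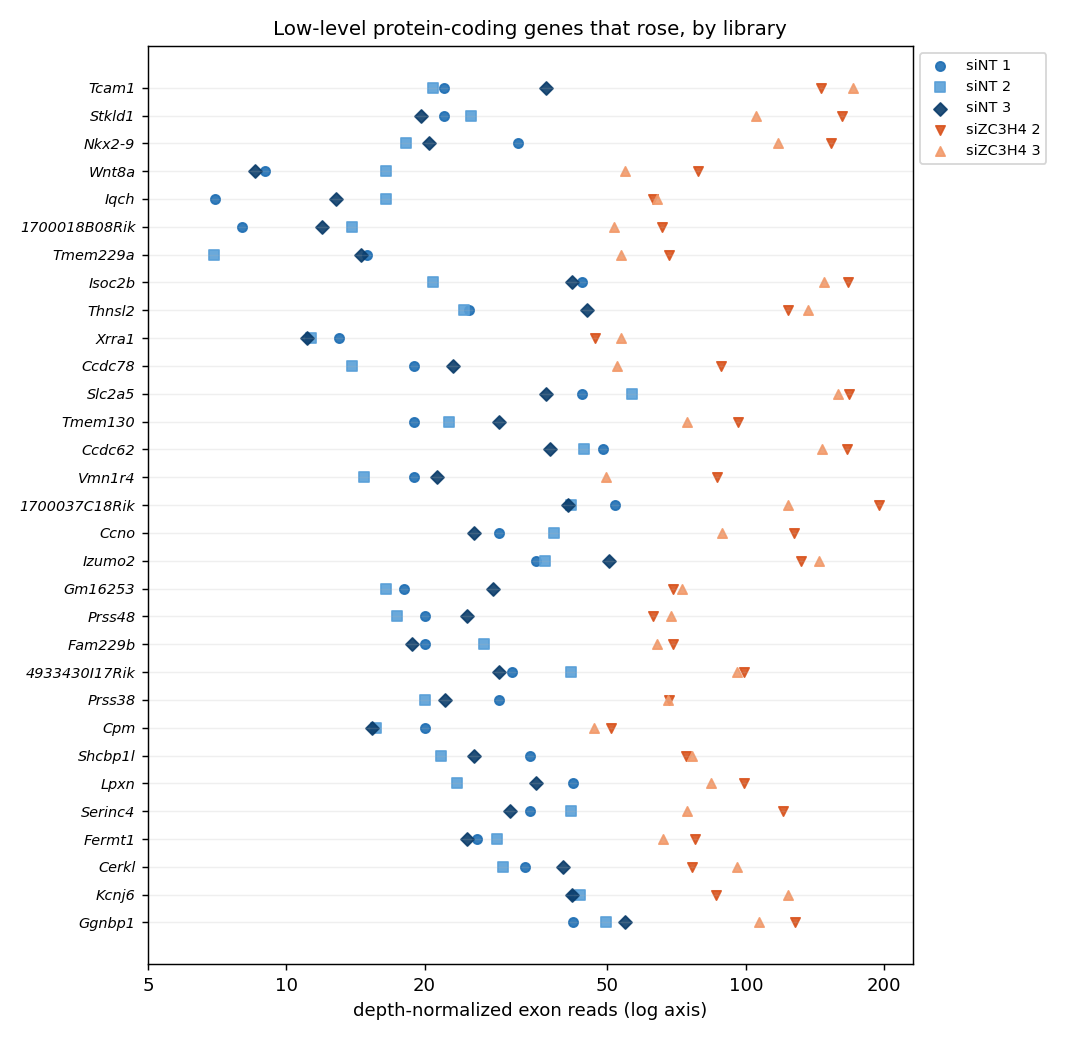
Depth-normalized exon reads (horizontal log axis) of the 31 low-level genes that rose, ordered by log2 change, with 1 symbol for each of the 5 libraries. In every gene both libraries labelled siZC3H4 (orange) lie to the right of the 3 siNT libraries (blue). The genes were chosen by a test of this difference.

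These calls depended on single libraries, as did those of all genes. Without siNT replicate 1 no low-level gene rose by limma, although 149 were higher at an unadjusted p under 0.05 (15.6%, against 8.36% of all genes), and only 2 of all genes tested rose. Without siZC3H4 replicate 2 the count was again 0, with 104 higher at an unadjusted p under 0.05 (10.7%, against 6.56% of all genes) and 10 of all genes called. Leaving out siNT replicate 2 gave 19, leaving out siNT replicate 3 gave 71, and leaving out siZC3H4 replicate 3 gave 5. The log2 change of each of the 31 genes stayed at 1.00 or more with any library left out. On recovered reads, edgeR called 43 low-level genes higher (background 2.76%), all of the 31 among them, and DESeq2 called 52 (background 4.24%).

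Gene lists by tissue of normal expression held 149 of the 979 low-level genes, of which 147 were tested and 8 rose (5.44%, background 2.22%). On no list were 821 tested genes, of which 23 rose (2.80%), and the median log2 changes were 0.26 and 0.27. The difference between these shares was not tested. On the list for testis and germ cells 3 of 20 genes rose (Tcam1, Shcbp1l and Ggnbp1) and the median was 0.20. At its other end was Fscn3, a testis fascin, at 36, 29.6 and 30.7 against 11.9 and 22.9 reads (log2 -0.91, limma adjusted p = 0.273). On the list for neurons and glia 2 of 38 rose (Nkx2-9 and Tmem130) with a median of 0.11, and the smallest value was that of Hpca, the neuronal calcium sensor hippocalcin (log2 -0.76, limma adjusted p = 0.426).

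Of the lists for liver, kidney and gut (10 genes, Slc2a5), surface and glandular epithelium (8 genes, 7 tested, Fermt1) and mesenchyme, bone, fat and vessels (20 genes, Wnt8a), 1 gene each rose. Wnt8a, described above as a ligand of the primitive streak, was held only by the mesenchyme list and not by that for early germ layers. Its place there is a matter of how the lists were drawn up. Onecut1, a liver and pancreas transcription factor, had 23, 26.1 and 34.1 reads against 33.4 and 69.8 (log2 0.80, limma adjusted p = 0.361), and its groups overlapped. Krtdap, of differentiating keratinocytes, had 40, 27.8 and 12.8 against 60.6 and 60.2 (log2 1.28, limma adjusted p = 0.191). Lmod1, a smooth muscle actin regulator on the mesenchyme and muscle lists, had 16, 19.13 and 17.1 against 47.5 and 42.1 (log2 1.32, limma adjusted p = 0.063). The lowest of the 3 lists were Upb1, a liver enzyme of pyrimidine breakdown (-0.40), Cst6, a cystatin of skin (-0.56), and the hedgehog ligand gene Ihh (-0.56), each a log2 change that missed the test.

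No gene rose by limma on 8 further lists, which together held 55 low-level genes. Of these 8 were higher and 1 lower at an unadjusted p under 0.05, and edgeR and DESeq2 each called 1 higher (backgrounds 2.76% and 4.24%). At that unadjusted p 11.0% of all genes tested were higher and 4.39% lower, and 17.1% and 1.45% of all low-level genes. Among 11 genes of motile cilia (median log2 0.46), Ccdc103, a dynein arm assembly factor, had 10, 19.13 and 11.1 reads against 56.6 and 28.7 (log2 1.57, limma adjusted p = 0.103), and Cfap43, a sperm tail protein, had 45, 30.4 and 70.8 against 115 and 132 (log2 1.40, limma adjusted p = 0.075). The groups of both, which were named as the 2 highest of their list, were apart (background 19.6%). Mak, a kinase of photoreceptor and sperm cilia, was at -0.45. Among 7 retinal genes (median 0.66), Pde6g, a subunit of the rod phosphodiesterase, was at 1.17 and Cryab, a lens crystallin, at 1.144, and the lens filament gene Bfsp1 was at -0.29. On the muscle and heart list (9 genes, 8 tested, median 0.51) Tbx20, a heart T-box factor, was at 1.02 and Nebl, a cardiac Z-disc protein gene, at -0.68. None of these log2 changes passed the test.

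Blood and immune genes (14, median 0.36) ranged from Alox5, a leukotriene synthesis enzyme, at 1.03 and Rhd, a red cell antigen gene, at 0.86 to the T cell factor gene Tbx21 at -0.55. Early germ layer genes (8, median 0.40) included the somite factor gene Mesp2 at 0.91, Hoxd13 of the distal limb at 0.81 and the Wnt inhibitor gene Dkk1 at 0.13. Endocrine genes (5, median -0.54) ran from the beta cell factor gene Mafa at 0.57 to Scg5, a neuroendocrine secretory protein gene, with 42, 43.5 and 38.4 reads against 15.8 and 20.1 (log2 -1.16, limma adjusted p = 0.086). The hormone gene Gnrh1, on the same list, was at -0.46. The oocyte list held only Nlrp14 (0.14) and the trophoblast list only Esx1 (-0.51), while lists for fibroblasts, two-cell-like cells and stem cell identity held no low-level gene. The plot by tissue list shows that each list with 5 or more tested members spread to both sides of 0, apart from the 8 early germ layer genes, which were all above it and none of which passed the test.

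**Figure D3:**
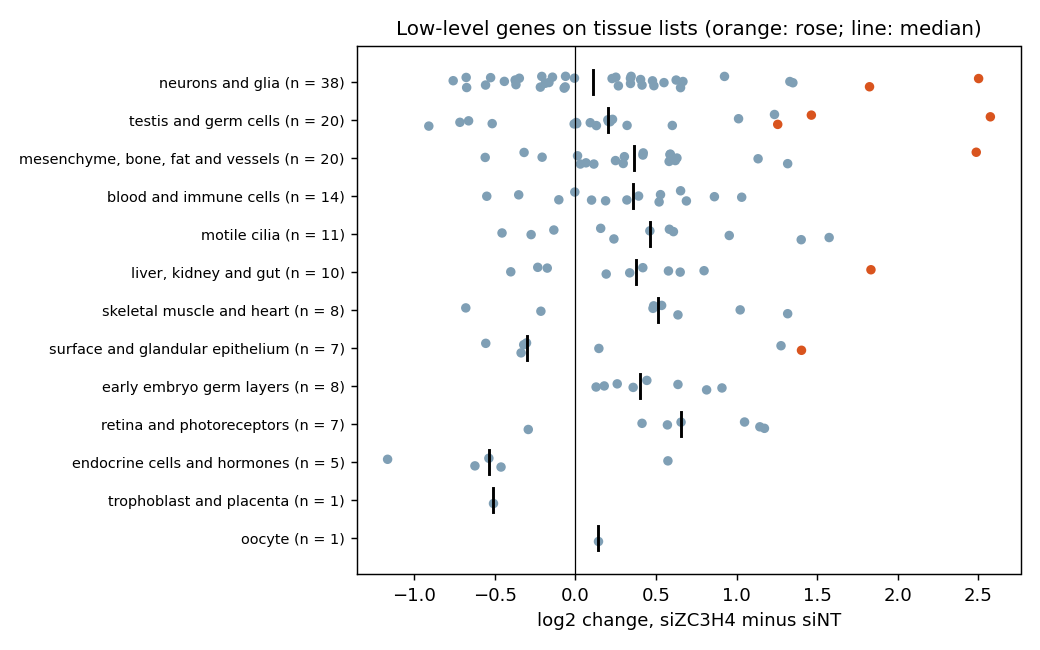
Log2 change of each tested low-level gene (points) on 13 lists by tissue of normal expression, with the median of each list as a black line. Orange points are genes that rose: 3 on the testis list, 2 on the neuron list and 1 each on 3 others.

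The position of the genes on the chromosome was not used to choose them. For 978 genes the coordinates of the table allowed distances to be measured, and 1 gene, Fhit, was listed with its start above its end. The nearest start of an opposite-strand gene upstream lay within 1 kb for 81 genes, at a median of 236 bp. Of these 81, all tested, 8 rose (9.88%) and the median log2 change was 0.57, while 23 of 886 other tested genes rose (2.60%) with a median of 0.24. Both libraries labelled siZC3H4 lay above all siNT libraries in 47 of the 81 (58.0%) and in 27.1% of the 897 others.

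In the siNT libraries the 2 sets had like exon reads, but not per length of transcript. The median was 15.7 depth-normalized reads per kb of transcript in the 81 genes and 10.8 in all 897 others. Their median transcripts were 1665 and 2494 bases. For the remaining values of this paragraph the others are genes with such a start farther upstream. They leave out the 7 genes that had none upstream on the chromosome. The median gene with such a start had 27, 23.5 and 29.01 depth-normalized reads in siNT and 41.3 and 41.1 in the libraries labelled siZC3H4, so that these medians did not overlap. The median of the others was 27, 21.7 and 28.2 against 28.3 and 31.5, and here siZC3H4 replicate 2 and siNT replicate 3 were almost level. As deviations from the siNT mean on the log2 scale, the medians of the 81 genes were 0.05, -0.16 and 0.10 against 0.58 and 0.67, and those of the others 0.09, -0.19 and 0.16 against 0.16 and 0.30. The medians of the 2 sets differed by 0.33, and by 0.31 to 0.41 over 14 other settings, including each library left out. The count of 8 risen genes was less stable, at 0 when siNT replicate 1 or siZC3H4 replicate 2 was left out, 2 when siZC3H4 replicate 3 was, and 16 when siNT replicate 3 was. Genes are not replicates of a condition, and no p was computed for this difference.

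Medians were lower at longer distances to such a start. Of 15 genes with one at 1 to 5 kb, 1 rose (median log2 0.42), and of 83 tested genes at 5 to 20 kb 3 rose (0.34). The counts were 9 of 237 at 20 to 100 kb (0.23) and 10 of 544 beyond 100 kb (0.22). With every RefSeq start taken as a neighbour, 120 genes had one within 1 kb upstream, of which 12 rose (10.0%), and with starts on either side of the gene 10 of 105 tested genes rose. Protein-coding genes above the range showed a smaller difference, with 40 of 1550 risen (2.58%, median 0.01) beside a start within 1 kb and 115 of 9030 risen (1.27%, median -0.01) without one.

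The 8 genes that rose beside such a start were divergent from genes of ordinary cell functions. Stkld1 lay 399 bp from Surf4, which encodes a cargo receptor of the secretory pathway and was at 2843 ± 108 depth-normalized reads in siNT and 2402 ± 161 in the libraries labelled siZC3H4 (log2 -0.24, limma adjusted p = 0.359). Iqch lay 214 bp from Aagab (1182 ± 218 against 997 ± 33.3), and Xrra1 (chr7:99859185-99917822, plus strand) lay 301 bp from Spcs2, a signal peptidase subunit gene (1152 ± 39.5 against 1099.8 ± 29.2). 1700037C18Rik (chr16:3904303-3908646, minus strand) lay 460 bp from Cluap1, an intraflagellar transport gene (479 ± 41.6 against 424 ± 35.6). In each of these pairs the low-level gene rose and the neighbour, which had more reads, was not called.

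Fam229b (chr10:39118808-39133900, minus strand) had 20, 27.0 and 18.8 reads in siNT and 69.6 and 64.1 in the libraries labelled siZC3H4 (log2 1.58, SE 0.30, limma adjusted p = 0.0307), and it lay 123 bp from Tube1, the gene of epsilon tubulin. 4933430I17Rik (chr4:62525276-62547993, plus strand) had 31, 41.7 and 29.01 against 99.0 and 95.6 (log2 1.51), 232 bp from Pole3, a subunit gene of DNA polymerase epsilon. Lpxn (chr19:12796228-12833807, plus strand) had 42, 23.5 and 35.0 against 99.0 and 84.1 (log2 1.46), 774 bp from Zfp91. By the RefSeq starts, that of Gm44505 was nearer to Lpxn, at 70 bp. Fam229b, 4933430I17Rik and Lpxn had groups that were apart, as had all genes that rose. Vmn1r4 was listed 260 bp from Nt5c3, but its nearest RefSeq start lay 32402 bp from the start given in the table, and the table does not show on which of its exons the reads fell.

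Of the 81 neighbours 73 were protein-coding and 8 were long noncoding RNA genes, with a median siNT mean of 506. Of the 76 that could be tested, 1 rose by limma, and their median log2 change was 0.03. Neighbours of 500 or more stood beside 41 of the low-level genes, of which 5 rose (median log2 0.46), and weaker neighbours beside 40, of which 3 rose (median 0.66). Among genes with such a start that missed the test, Morn2 had 46, 33.9 and 39.2 reads in siNT and 106 and 82.2 in the libraries labelled siZC3H4 (log2 1.22, limma adjusted p = 0.0536), 212 bp from Dhx57. Fam227a had 52, 34.8 and 39.2 against 79.2 and 107 (log2 1.13, limma adjusted p = 0.0804), 43 bp from Cby1. The groups of Morn2 and Fam227a were apart (background 19.6%), and both were named for their high mean in the libraries labelled siZC3H4. Of the 81 genes 17 had a log2 change below 0, the lowest other than histone genes being Tsga10 (-0.81, limma adjusted p = 0.351) and Serpini1 (-0.63, limma adjusted p = 0.355), both picked after their values were seen. The histone genes Hist1h2br and Hist1h2bq, at 236 bp from another histone gene each, were at -1.22 and -0.52. The histone genes are near-identical copies between which reads can be shared, so their values are uncertain.

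Of the 81 genes, 69 had a RefSeq promoter, with a median of 23 CG in 300 bases against 18 in 677 others. TATAAA was found in 4.35% of the 69 and in 10.3% of the others, GGGCGG in 68.1% and 62.5%, and CCAAT in 39.1% and 35.7%. In the sequences shown above, Iqch held 41 CG, Fam229b 27, Tcam1 21, 1700037C18Rik 16 and Nkx2-9 15.

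By the table's coordinates, other rises lay inside or across a gene of the opposite strand. Starts of 40 low-level genes fell inside an opposite-strand gene, and 3 of the 39 tested rose: Ccdc78, with the start of Haghl 51 bp downstream, Serinc4, with the start of Hypk 262 bp downstream, and Prss48, inside Sh3d19. The RefSeq starts of Ccdc78 and Serinc4 lay 938 and 599 bp from those in the table. By these, Haghl started 994 bp upstream of Ccdc78 and Hypk 324 bp upstream of Serinc4. The library kit was stranded, but the sources used here do not say whether counting used the strand, so reads of these 3 genes and of their partners may not be fully separated. Haghl was at 321 ± 64.4 depth-normalized reads in siNT and 292 ± 65.6 in the libraries labelled siZC3H4 (log2 -0.13), a difference opposite to that of Ccdc78 and within its SD.

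Tcam1 started 3615 bp from Smarcd2, a subunit gene of the BAF chromatin remodelling complexes, on the opposite strand by the table's coordinates, and 9040 bp from it by the RefSeq starts. Exon reads of Smarcd2 were 1775 ± 86.4 in siNT and 1787 ± 169 in the libraries labelled siZC3H4 (log2 0.01). The upstream antisense RNA (uaRNA) of Smarcd2, which runs in the direction of Tcam1, had 423, 330 and 329 depth-normalized reads in siNT and 1763 and 1278 in the libraries labelled siZC3H4 (log2 2.06, SE 0.22, limma adjusted p = 8.99e-12). Both Tcam1 and this uaRNA were thus higher in the libraries labelled siZC3H4, where 62.1% of all uaRNAs tested rose. Whether a read can count for both Tcam1 and this uaRNA was not tested. None of the 81 neighbours within 1 kb had a uaRNA in the table. Absence from it does not show that these neighbours lacked such a transcript, and its reason was not tested.

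A uaRNA of the gene itself was listed for 197 low-level genes. Of 100 tested, 45 rose (45%, background 62.1%) and 1 fell (background 1.13%), with a median log2 change of 0.83 against 0.88 over all 5124 uaRNAs tested. Among the 45 genes whose own uaRNA rose, 6 rose over exons (13.3%, background 2.22%, median log2 0.59). Among the 55 whose uaRNA was tested and did not rise, 3 did (5.45%, median 0.25). The 45 genes also had more siNT reads per kb of transcript (median 20.1 against 12.3), and a relation of exon and uaRNA rises was not tested. The 6 genes were Tcam1, Isoc2b, Ccdc62, Izumo2, Gm16253 and Shcbp1l. The uaRNA of Gm16253 had 209, 151 and 211 depth-normalized reads in siNT and 625 and 602 in the libraries labelled siZC3H4 (log2 1.70, limma adjusted p = 1.56e-08). That of Izumo2 had 336, 341 and 359 against 817 and 666 (log2 1.09, limma adjusted p = 2.71e-05), so in these genes transcripts of both directions were higher. The uaRNA of 1700018B08Rik had 426, 457 and 311 against 571 and 441, which overlapped (log2 0.35, limma adjusted p = 0.167), and its exon reads rose without it.

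The nearest end of a same-strand gene upstream gave counts and medians in no order of distance. Within 1 kb lay 14 such ends, and none of these genes rose by limma (median log2 -0.06). Of these 14, edgeR and DESeq2 each called 1 (backgrounds 2.76% and 4.24%), and 2 were higher at an unadjusted p under 0.05 (background 11.0%). At 1 to 5 kb 3 of 61 rose (0.23), at 5 to 20 kb 6 of 118 (0.34), at 20 to 100 kb 9 of 258 (0.31) and beyond 100 kb 13 of 511 (0.24). The closest among genes that rose were Ccdc62, 1879 bp after the end of Denr, a translation factor gene, Ccdc78, 2851 bp after Ciao3, and Serinc4, 2872 bp after Mfap1b. Reads of Denr were 1262 ± 210 in siNT and 1217 ± 154 in the libraries labelled siZC3H4 (log2 -0.05). None of 7 genes that overlapped a gene of their own strand rose by limma, edgeR or DESeq2. At an unadjusted p under 0.05, 1 of them was higher (background 11.0%).

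**Figure D4:**
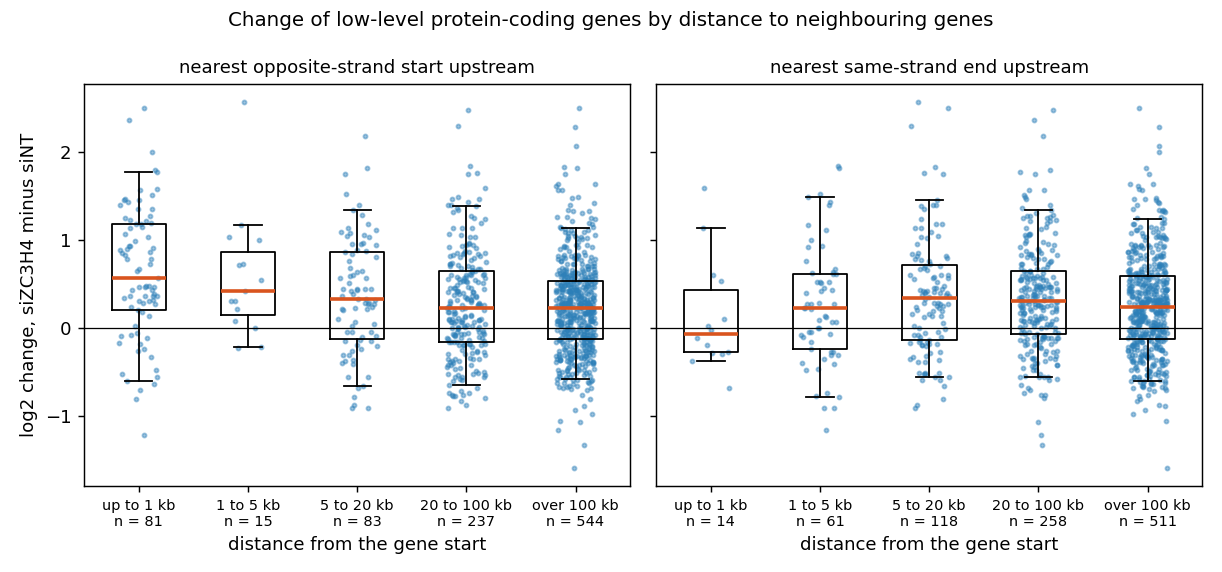
Log2 change of tested low-level genes by distance from the gene's start to the nearest opposite-strand start upstream (left) and to the nearest same-strand end upstream (right). Points are genes, boxes span the quartiles with the median in orange, and whiskers run from the 5th to the 95th percentile. The left medians go from 0.57 within 1 kb to 0.22 beyond 100 kb.

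Span, the distance from start to end in the table, had a median of 22025 bp over the low-level genes and 21423 bp over all protein-coding genes. The 31 genes that rose had a median span of 16182 bp, from 1786 bp for Nkx2-9 to 180815 bp for Iqch. Divided by span into 4 sets, 10 of 241, 8 of 243, 10 of 241 and 3 of 242 tested genes rose from the shortest to the longest, with median log2 changes of 0.27, 0.21, 0.29 and 0.27. The longest genes were Gpc6, a glypican gene of 1049238 bp (log2 -0.38), Pard3b (-0.55), Ptprn2 (0.35), the glutamate receptor gene Grid1 (-0.42) and the sulfotransferase gene Hs6st3 (-0.58), none of which passed the test. Gpc6 had 47, 34.8 and 35.8 reads in siNT and 27.2 and 32.5 in the libraries labelled siZC3H4. The shortest were the testis linker histone gene H1f6, of 210 bp, with 11, 13.9 and 6.83 against 28.3 and 19.12 reads (log2 1.12, limma adjusted p = 0.247), and Hist1h2br and Hist1h2bq, of 459 bp each.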

How the data were processed

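Per the labels' protocols, RNA labelled with 4-thiouridine was pulled down and made into stranded libraries. The submitters' processing notes name builds mm10 and dm6 and list DESeq2, featureCounts, STAR and cutadapt 1.14. The authors deposited a table of exon values and a table of uaRNA values as depth-normalized signal. In the deposited table the values of siNT replicate 1 were whole counts, and the others were whole reads divided by 1.15, 1.172, 1.767 and 1.046 (100% whole within 0.01 reads). The sources used here do not give the origin of these factors. DMSO and dTAG samples are not analysed here. A result for 1 gene outside the range is not reported here.

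Tests used limma 3.58.1 (lmFit, eBayes with trend, R 4.3.3) on log2(value + 1), which understates changes of low genes, over 12482 genes with a mean of 10 or more, with Benjamini-Hochberg adjustment over all of them and a threshold of 0.05, the libraries labelled siZC3H4 minus siNT. "Rose" and "fell" describe genes past it. Alternatives were edgeR 4.0.16 and DESeq2 1.42.0 on recovered reads, and scripts were tested on simulated data. Distances were computed in Python 3.11.15 with pandas 2.3.3 from the table's mm10 coordinates, leaving out 6 genes listed with start above end. Errors are SD, with n = 3 for siNT and n = 2 for siZC3H4. The genes, gene lists and tests were chosen with earlier results of these data known. Lists were matched after 31 symbols were updated through RefSeq synonyms. Genes were named as the 20 with the largest rise, the 2 highest and the lowest of each list, the 5 longest and 3 shortest, the 2 nearest each limit and the 5 divergent genes with the highest siZC3H4 mean, and others are said to be chosen after their values were seen.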

Additional observations from a re-analysis of the deposited data

How the results depend on the processing

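The count of 31 risen genes was 31 and 36 with pseudocounts of 0.5 and 5, 31 with a minimum mean of 20, 43 and 41 by edgeR with the authors' factors and with TMM, 30 with median-of-ratios scaling and 31 without genes that overlap another of their strand. It was 52 by DESeq2 and 2 with no filter on low values, where the log2 changes of the 31 were unchanged and their adjusted p-values ran from 0.0448 to 0.108, and the cause was not tested. With each library left out it ranged from 0 to 71, and the count of fallen genes from 0 to 1. With genes chosen on 1 siNT library and compared with the other 2, 0, 19 and 67 rose and 0, 0 and 2 fell (medians 0.25, 0.11 and 0.33). The median log2 change ranged from 0.16 to 0.35 with a library left out and from 0.21 to 0.30 under the settings of pseudocount, filter, scaling, tool and overlap above. Of the 8 risen genes near a divergent start, 5 had a neighbour of 500 or more, DESeq2 called 15, and leaving out a library gave 0 to 16. The RefSeq starts, the starts on either side of the gene, and the tools and left-out libraries tried on counts and medians near a divergent start were chosen after seeing the data. Of the 9 risen genes within 20 kb of a same-strand end upstream, leaving out a library gave 0 to 23. The 45 risen uaRNAs were 29 to 52. Zc3h4 ranged from 0.95 to 1.07 and missed the threshold when siNT replicate 1 (1.01) or siZC3H4 replicate 2 (0.95) was left out. With a library left out, the log2 change of single genes turned for Nlrp14 (-0.31 to 0.59, lowest without siZC3H4 replicate 3), Mak (-0.94 to 0.029) and Tbx21 (-1.15 to 0.051), both highest without siZC3H4 replicate 2, Dkk1 (-0.34 to 0.60, with -0.12 when siNT replicate 3 was left out) and Hs6st3 (-1.20 to 0.029, highest without siZC3H4 replicate 3).

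The groups share replicate numbers 2 and 3, which the labels do not tie to a culture or day. Deviations of same-numbered libraries correlated at 0.528 and 0.618 across genes, and those with the numbers 2 and 3 crossed at -0.528 and -0.618. The deviations of the 2 siZC3H4 libraries mirror each other, so with 2 pairs this does not show pairing. The main test did not use the replicate number. With the replicate number as a block, 174 low-level genes rose and 8 fell, with a median of 0.28, and 1530 of all genes rose.

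With 3 libraries against 2 and a median SE of 0.36 on the log2 scale, 31 of the 116 low-level genes with a change of 2-fold or more upward were called.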
